A study of Mus musculus with 36 samples.

Results

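The 9 genes described here make bile acids from cholesterol, carry them across the hepatocyte membrane, sense them, or export sterols into bile. They are Cyp7a1, Cyp8b1, Cyp27a1, Slc10a1, Abcb11, Nr1h4, Nr0b2, Abcg5 and Abcg8, and they were chosen by name, as the probe sets whose only gene symbol is 1 of these. Each gene had 1 such probe set among the 35556 on the array, so they are 9 of the 19938 genes that the array annotation names by a symbol of their own. Livers, skeletal muscle and adipose tissue of male C57Bl/6 mice were compared between animals with 1 inactivated copy of Myc (Myc+/-) and wild type animals, at 5 and 24 months of age. The series title concerns a longer and healthier life of mice with lowered Myc expression. RNA was pooled in equal amounts from 6 wild type mice of 5 months, 5 wild type mice of 24 months, 5 Myc+/- mice of 5 months or 8 Myc+/- mice of 24 months, with the same animals used for the 3 tissues. Each of the 12 pools was hybridised to 3 technical arrays (Affymetrix Mouse Gene 1.0 ST), which gave 36 arrays.

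Every group was male, of 1 strain and kept on the same food, and the sources used here do not say which part of Myc was inactivated. There was 1 pool for each tissue, age and genotype, so no pair of pools of like mice shows how far such pools vary. The error behind the pool-level p-values is the inconsistency of an age difference between the genotypes, or of a genotype difference between the ages. Liver, muscle and adipose share 1 such error per probe set. Every member but Cyp27a1 lay below the filter on low values in muscle and adipose. Such low readings therefore enter the errors, intervals and p-values given for liver. In whole tissue, fewer cells of a type and less RNA per cell cannot be told apart.

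Hepatocytes turn cholesterol into bile acids along a classic pathway, which opens with 7-alpha-hydroxylation of cholesterol, and an alternative pathway, which opens with oxidation of its side chain. Bile acids leave the hepatocyte across the canalicular membrane, return from the gut in portal blood and are taken up again, while free cholesterol and plant sterols enter bile through a separate exporter. Bile acids limit their own synthesis through a nuclear receptor that they bind and a repressor that it induces.

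A pair of promoter stretches is shown, because their genes gave the members' 2 calls with age in liver. Both are from RefSeq on build GRCm38.p6, written 5′ to 3′. Upstream of Cyp8b1, the 250 bases before the start site lie at chr9:121916306-121916555 on the minus strand. Its capitals mark overlapping matches to 2 motifs, CAAAGTCCA (the core of a site for HNF4A) and CAAGGNCA (the extended half-site of NR5A2). Abcg5 and Abcg8 are transcribed away from each other. The 109 bases between the Abcg5 start site and the nearer of 2 Abcg8 start sites lie at chr17:84683012-84683120, written on the plus strand. Capitals there mark the GATA box AGATAA, read on the minus strand.
Cyp8b1: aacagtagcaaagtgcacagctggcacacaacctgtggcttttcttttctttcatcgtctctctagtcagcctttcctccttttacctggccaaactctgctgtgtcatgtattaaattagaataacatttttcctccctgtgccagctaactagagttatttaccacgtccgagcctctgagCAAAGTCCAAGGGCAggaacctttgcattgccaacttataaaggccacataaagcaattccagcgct
Abcg5-Abcg8: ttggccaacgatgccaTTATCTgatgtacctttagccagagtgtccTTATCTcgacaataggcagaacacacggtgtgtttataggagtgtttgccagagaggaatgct

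In the Cyp8b1 promoter the HNF4A core began 67 bases and the NR5A2 half-site 60 bases before the start. Over 32851 RefSeq promoter windows of 250 bases, searched on both strands, 0.384% held the HNF4A core, 5.53% the NR5A2 half-site and 0.0335% (11 windows) both. Between Abcg5 and Abcg8 there were 2 GATA boxes, and 0.186% of windows held 2 or more in their last 109 bases. These are matches of letters, with no measurement of binding.

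The other members' windows were searched for the same letters and for the nuclear receptor half-site AGGTCA (in 14.0% of windows), the E-box CACGTG (6.02%) and the D-box TTANGTAA (2.06%). The GATA box was in 9.99% of windows. Abcb11 held AGGTCA 56 bases before its start, 1 of the 2 windows of Slc10a1 held it 87 bases before, and Nr1h4 held it 214 bases before beside a GATA box at 131. Nr0b2 held the NR5A2 half-site 201 bases and the E-box 195 bases before its start. In the window of Cyp27a1 none of these letter strings was found, nor in the farther of the 2 windows of Abcg8, which begins at chr17:84676052. An inverted repeat of the nuclear receptor half-site, named for the farnesoid X receptor (Nr1h4), was also searched for. It had 0 matches in the members' windows, and 2 of the 32851 promoter windows held it. A window was at hand for 8 of the 9 members.

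The 11 hepatocyte markers on the array had a median of 13.94 to 14.01 in the 4 liver pools (log2 expression, the unit of all levels here). Array medians ran from 6.95 to 7.14 over the 36 arrays, and an array correlated at 0.988 to 0.994 with the others of its pool. Array 1 of the 5-month Myc+/- liver pool stood apart: its highest value was 14.46, against 15.28 and 15.32 on the others of that pool, and its hepatocyte markers had a median of 13.56, against 14.15 and 14.24. This array enters each liver comparison below, and values without it are given for the members, for the counts of the pathway lists and for the named genes whose call it changed. At 5 months, liver Myc averaged 8.57 ± 0.13 (SD, n = 3 arrays) in the wild type pool and 7.97 ± 0.14 in the Myc+/- pool, and at 24 months 8.56 ± 0.04 and 8.32 ± 0.12, with no overlap between the genotypes at either age. Its pool-level difference was -0.42 ± 0.14 (SE; adjusted p = 0.622 by limma), so the targeted gene itself did not pass the genotype test in liver (-0.44, adjusted p = 0.580 by limma, without the array that stood apart).

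Age and genotype were tested in liver with limma on the pool means, 2 pools per arm, over 13073 probe sets, all 9 members among them. With age, 2 members fell and 0 rose, where 17.2% of all probe sets were called lower and 30.5% higher. The members' median difference was -0.13 (log2, 24 minus 5 months), beside 0.06 over all probe sets, and 5 of the 9 were lower at 24 months in both genotypes, beside 34% of all probe sets. The 2 that fell were Cyp8b1, which directs synthesis toward cholic acid, and Abcg8, a subunit of the biliary sterol exporter.

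**Figure D1:**
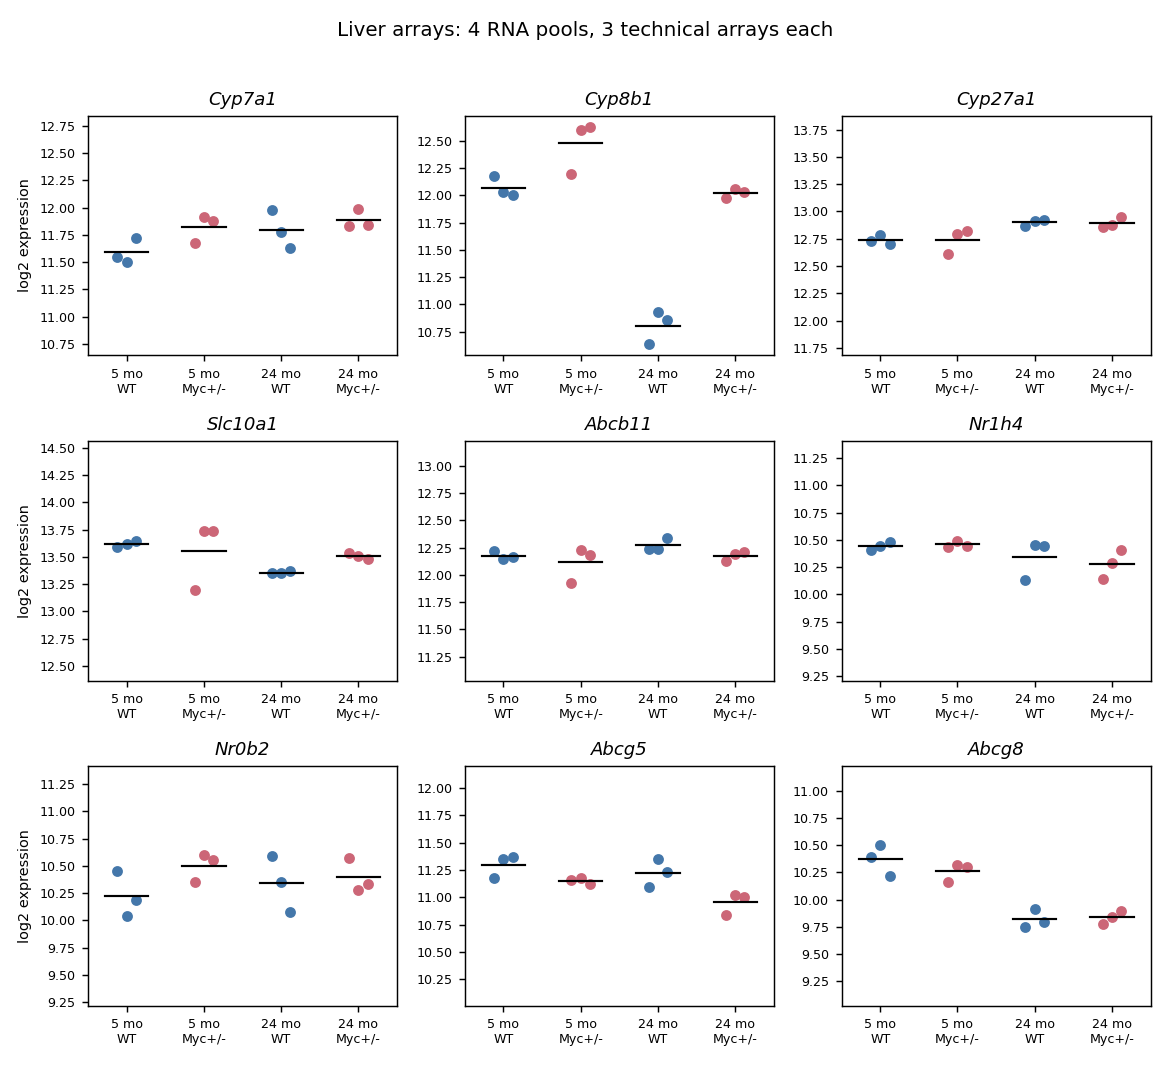
Log2 expression of the 9 genes on each of the 12 liver arrays, with 4 RNA pools on the horizontal axis (blue wild type, red Myc+/-). Points are technical arrays and bars are pool means, and the vertical scale spans the same number of log2 units in each panel. For Cyp8b1 the 24-month wild type arrays, at 10.63 to 10.93, lie below all others, and for Abcg8 both 24-month pools lie below both 5-month pools.

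Synthesis in the classic pathway is opened by Cyp7a1, the rate-limiting cholesterol 7-alpha-hydroxylase (probe set 10511375). Its arrays read 11.50, 11.55 and 11.72 in 5-month wild type and 11.67, 11.87 and 11.91 in 5-month Myc+/- liver. At 24 months they read 11.63, 11.78 and 11.98 in wild type and 11.83, 11.84 and 11.99 in Myc+/- liver. Each pool overlapped the next in order, and the pool means spanned 1.23-fold in all. The age difference was 0.14 ± 0.14 (95% interval -0.20 to 0.47; adjusted p = 0.451 by limma) and the genotype difference 0.16 ± 0.14 (adjusted p = 0.818), so neither passed the test, and the age interval leaves room for a change of up to 0.47 upward. Without the array that stood apart they were 0.10 and 0.20, and the age difference within Myc+/- went from 0.07 to -0.0074.

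Cyp8b1, the sterol 12-alpha-hydroxylase, sets the ratio of cholic acid to the other primary bile acids (probe set 10597875). Wild type arrays read 12.18, 12.03 and 12.01 at 5 months and 10.63, 10.93 and 10.86 at 24 months. Myc+/- arrays read 12.20, 12.60 and 12.63 at 5 months and 11.98, 12.06 and 12.03 at 24 months. The 24-month wild type pool was therefore lowest and apart from every other array, the 24-month Myc+/- pool overlapped the 5-month wild type pool, and the 5-month Myc+/- pool was highest. The pool means spanned 3.19-fold, the widest range of the 9 genes in liver.

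Averaged over genotypes, Cyp8b1 fell by 0.86 with age (SE 0.22, 95% interval -1.38 to -0.34; adjusted p = 0.0164 by limma), which is 1.82-fold. The change was -1.27 in wild type and -0.46 in Myc+/-. With a wild type liver pool left out, the fit returns the Myc+/- change of -0.46 alone. With a Myc+/- liver pool left out, it returns the wild type change of -1.27. The error then comes from muscle and adipose only, so these fits cannot show how firm the liver call is. Without the array that stood apart, the age difference was -0.93 (adjusted p = 0.00952 by limma).

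Cyp8b1 was higher in the Myc+/- pool at both ages, by 0.41 at 5 months and 1.22 at 24 months. The pool-level difference of 0.81 ± 0.22 ranked 26th in size among 13073 probe sets, with a 95% interval of 0.29 to 1.33 and an unadjusted p of 0.00753 by limma. After adjustment p was 0.555 (0.444 without the array that stood apart), so the gene did not pass the genotype test. No probe set did in liver (0% called; 995 had an unadjusted p under 0.05, and the smallest adjusted p was 0.102 by limma).

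**Figure D2:**
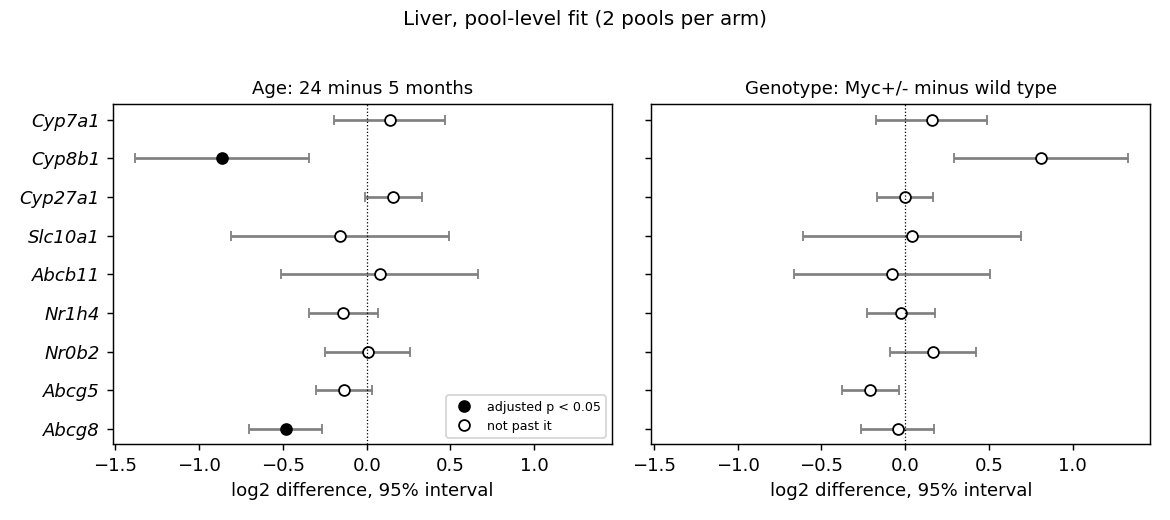
Pool-level differences in liver for the 9 genes, age on the left (24 minus 5 months) and genotype on the right (Myc+/- minus wild type), in log2 units with 95% intervals. Filled points passed an adjusted p of 0.05: Cyp8b1 at -0.86 and Abcg8 at -0.48 with age, and no gene with genotype.

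A second limma fit on the 36 single arrays set 1 RNA pool against another, with technical error as its only yardstick, and does not speak for the populations of mice. There, a probe set was called at an adjusted p under 0.05 and at least 1.5-fold. Cyp8b1 was 2.41-fold lower at 24 than at 5 months in wild type (adjusted p = 1.21e-11, 36-array limma fit), where 14.4% of probe sets were called in either direction. In Myc+/- the drop of 0.46 had an adjusted p of 0.00141 but was under 1.5-fold. There 11.9% of probe sets were called. Without the array that stood apart it was 0.60 and was called (adjusted p = 0.000146).

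Between genotypes, Cyp8b1 was 2.32-fold higher in the Myc+/- pool at 24 months (adjusted p = 3.58e-10, 36-array limma fit), where 1.81% of probe sets were called. At 5 months its difference of 0.41 was under 1.5-fold (adjusted p = 0.0395), with 0.459% of probe sets called. The age change differed between the genotypes by 0.81 ± 0.17 (SE, 95% interval 0.47 to 1.15; adjusted p = 0.000929), where 2.45% of probe sets were called, and by 0.67 (adjusted p = 0.00729) without the array that stood apart. The difference was 0.56, under 1.5-fold, when array 1 of every pool was left out. Among the 9 genes, only Cyp8b1 was called in any of these 5 comparisons, which share pools with each other.

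Over the 12 liver arrays, the genes whose pattern was most like that of Cyp8b1 were Gm21286 (Pearson r = 0.980), Nat8f5 (r = 0.967), Slc15a5 (r = 0.953), Fabp2 (r = 0.951) and Csad (r = 0.951). They were the top 5 of 778 probe sets whose liver pool means spanned at least 1 log2 unit, and the arrays share 4 RNA pools. Csad, the decarboxylase that leads to taurine, with which mouse bile acids are conjugated, averaged 10.62 in 5-month wild type, 10.72 in 5-month Myc+/-, 9.59 in 24-month wild type and 10.67 in 24-month Myc+/- liver. Fabp2, a fatty acid-binding protein also on the list of intestinal markers, averaged 11.11, 11.30, 10.09 and 10.76 in the same order. For all 5 genes the 24-month wild type pool was lowest, and r was 0.951 to 0.979 over the 11 arrays left without the one that stood apart.

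Cyp27a1, the mitochondrial sterol 27-hydroxylase, opens the alternative pathway and oxidises the side chain in both (probe set 10347481). Liver arrays ran from 12.61 to 12.82 in the 5-month pools and from 12.86 to 12.95 in the 24-month pools. The ages did not overlap and the genotypes did. The age difference of 0.16 ± 0.07 (95% interval -0.01 to 0.33) did not pass (adjusted p = 0.108 by limma), and was 0.13 without the array that stood apart. With all 36 arrays and the pool as a random block, which takes the technical arrays into the test, the adjusted p was 0.00618. In the 36-array fit the difference was 0.16 in wild type (adjusted p = 0.0117) and 0.16 in Myc+/- (adjusted p = 0.0179), both under 1.5-fold. Its genotype difference was -0.0014 ± 0.07.

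Uptake from portal blood is carried by Slc10a1, the sodium taurocholate cotransporter (probe set 10401289). It read 13.59, 13.62 and 13.65 in 5-month wild type, and 13.35, 13.35 and 13.37 in 24-month wild type liver. In Myc+/- liver it read 13.19, 13.74 and 13.74 at 5 months and 13.48, 13.51 and 13.53 at 24 months. The low value of 13.19 was the array that stood apart, and it made the 5-month Myc+/- pool overlap all others. The pool-level age difference was -0.16 ± 0.28 (95% interval -0.81 to 0.49; adjusted p = 0.661 by limma), or -0.25 without that array (adjusted p = 0.482). In wild type alone it was -0.26 (adjusted p = 0.0179, 36-array limma fit), under 1.5-fold.

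Export into the canaliculus depends on Abcb11, the bile salt export pump (probe set 10483410). Its arrays ran from 11.93 to 12.33 in liver, and only the 24-month wild type pool, at 12.24 to 12.33, was apart from the next. The age difference was 0.08 ± 0.25 (95% interval -0.51 to 0.67; adjusted p = 0.814 by limma) and the genotype difference -0.08 ± 0.25. Array 1 of the 5-month Myc+/- pool read 11.93 and the others of that pool 12.19 and 12.23. Without it the differences were 0.03 with age and -0.03 with genotype. The difference with age within Myc+/- turned from 0.06 to -0.03, and that with genotype at 5 months from -0.06 to 0.03. With all arrays, the liver age difference was 0.09 in wild type and 0.06 in Myc+/-. The wide intervals also draw on muscle, below the filter on low values, with pool means from 4.595 to 5.521 there. These intervals do not show that the pump's RNA was the same in the groups.

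Bile acids are sensed by Nr1h4, the farnesoid X receptor FXR, which induces Nr0b2, the small heterodimer partner SHP, a repressor of bile acid synthesis. Nr1h4 (probe set 10371784) ran from 10.41 to 10.49 in the 5-month pools and from 10.13 to 10.46 in the 24-month pools, and neighbouring pools overlapped. Its age difference was -0.14 ± 0.09 (95% interval -0.34 to 0.07; adjusted p = 0.224 by limma) and its genotype difference -0.03 ± 0.09. Nr0b2 (probe set 10508887) varied more between arrays of a pool, from 10.04 to 10.46 in 5-month wild type and from 10.08 to 10.59 in 24-month wild type liver. Its age difference was 0.01 ± 0.11 (95% interval -0.25 to 0.26; adjusted p = 0.969 by limma) and its genotype difference 0.17 ± 0.11. Neither regulator passed the age or the genotype test. Without the array that stood apart, the age differences were -0.14 for Nr1h4 and -0.03 for Nr0b2, and the genotype differences -0.02 and 0.20.

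Abcg5 and Abcg8 encode half-transporters that work as a heterodimer to export cholesterol and plant sterols into bile. Abcg8 (probe set 10447239) read 10.39, 10.50 and 10.21 in 5-month wild type and 9.75, 9.92 and 9.80 in 24-month wild type liver. In Myc+/- liver it read 10.16, 10.32 and 10.30 at 5 months and 9.78, 9.84 and 9.90 at 24 months. Both 24-month pools lay below both 5-month pools, and the genotypes overlapped at each age. Abcg8 fell by 0.48 with age (SE 0.09, 95% interval -0.70 to -0.27; adjusted p = 0.00535 by limma), which is 1.40-fold.

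The drop in Abcg8 was 0.55 in wild type and 0.42 in Myc+/-. It was 0.51 (adjusted p = 0.00429 by limma) without the array that stood apart. With a wild type liver pool left out, the fit returns the Myc+/- drop of 0.42 alone. With a Myc+/- liver pool left out, it returns the wild type drop of 0.55. Their error comes from muscle and adipose only, so these fits cannot show how firm the liver call is. In the 36-array fit the drop in Abcg8 passed in wild type (adjusted p = 0.000865) and in Myc+/- (adjusted p = 0.0103), under 1.5-fold in both. Its genotype difference was -0.05 ± 0.09.

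Abcg5 (probe set 10453318) starts 109 bases from the nearer start of Abcg8. It read 11.18, 11.35 and 11.37 in 5-month wild type and 11.09, 11.24 and 11.35 in 24-month wild type liver. Myc+/- arrays read 11.12, 11.16 and 11.17 at 5 months and 10.84, 11.01 and 11.02 at 24 months. The 24-month Myc+/- pool was lowest and apart from the rest. The age difference was -0.13 ± 0.07 (95% interval -0.30 to 0.03; adjusted p = 0.160 by limma). The genotype difference was -0.21 ± 0.07 (95% interval -0.38 to -0.04), at -0.15 at 5 months and -0.27 at 24 months, with an adjusted p of 0.622. Without the array that stood apart the age and genotype differences were again -0.13 and -0.21. So of this gene pair Abcg8 fell with age, and Abcg5 did not pass; the difference between their changes was not tested.

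Other genes of the pathway were taken from 5 lists, chosen with earlier results of these data known and so no independent evidence of direction. Over all probe sets, 30.5% were called higher and 17.2% lower with age, and the counts of each of the 5 lists are to be read beside these shares. Of 19 other enzymes of bile acid synthesis tested, 2 rose and 3 fell with age, with a median of -0.03 (2 and 4, with -0.07, without the array that stood apart). Fdx1, the ferredoxin that feeds electrons to mitochondrial P450 enzymes such as Cyp27a1, fell by 1.00 (SE 0.08; adjusted p = 0.000167 by limma), from 9.91 and 9.73 in the 5-month wild type and Myc+/- pools to 8.84 and 8.79. Hsd3b7, which oxidises the 3-beta-hydroxyl group of the sterol ring after 7-alpha-hydroxylation, rose by 0.58 ± 0.06 (adjusted p = 0.000437). Named for genotype, Cyp46a1, the cholesterol 24-hydroxylase, differed by 0.21 ± 0.08 and Acot8, a peroxisomal thioesterase, by 0.20 ± 0.08 (adjusted p = 0.647 for each).

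Of 12 transporters tested, 5 rose and 2 fell with age, with a median of 0.11 (5 and 3, with 0.08, without that array). Slco1a4, an organic anion transporter, rose by 0.74 ± 0.08 (adjusted p = 0.000582 by limma). Slco1a1, another sinusoidal transporter of bile acids and organic anions, averaged 11.83 in 5-month wild type, 11.58 in 5-month Myc+/-, 9.65 in 24-month wild type and 11.28 in 24-month Myc+/- liver. Its drop of 1.24 with age passed (SE 0.38; adjusted p = 0.0326 by limma), at -2.19 in wild type and -0.29 in Myc+/-. In the 36-array fit its age change differed between the genotypes by 1.89 ± 0.18 (adjusted p = 1.90e-10), and it was 3.11-fold higher in the Myc+/- pool at 24 months. Like Cyp8b1, it was lowest in the 24-month wild type pool. Ephx1, microsomal epoxide hydrolase, differed by 0.35 ± 0.09 with genotype (adjusted p = 0.532), and its age difference of -0.22 (adjusted p = 0.0812) was -0.26 and passed (adjusted p = 0.0351 by limma) without the array that stood apart.

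Of 15 regulators tested, 1 rose and 4 fell with age, with a median of -0.06 (1 and 4, with -0.07, without that array). Onecut1, a liver transcription factor also called HNF6, fell by 0.60 (SE 0.10; adjusted p = 0.00330 by limma), and Nr2f2, the orphan receptor COUP-TFII, fell by 0.53 (SE 0.09; adjusted p = 0.00356). Nr1i2, the pregnane X receptor, differed by 0.10 ± 0.10 with genotype (adjusted p = 0.829). The 2 factors whose motifs lie in the Cyp8b1 promoter shown above were looked up after their values were seen. Hnf4a rose by 0.48 ± 0.09 with age (adjusted p = 0.00469) while Nr5a2 had a difference of -0.08 ± 0.17 (adjusted p = 0.730).

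Of 14 genes of sterol export and targets of the oxysterol receptor LXR, 4 rose and 2 fell with age, with a median of 0.06 (4 and 2, with 0.04, without that array). Srebf1, which encodes the main activator of fatty acid synthesis genes, fell by 1.11 (SE 0.07; adjusted p = 0.000116 by limma), from 11.39 and 11.36 in the 5-month wild type and Myc+/- pools to 10.41 and 10.12. Mylip, a ubiquitin ligase that marks the LDL receptor for breakdown, rose by 0.62 ± 0.06 (adjusted p = 0.000338). Stard4, a sterol carrier, fell by 0.55 (SE 0.07; adjusted p = 0.00107). Abca1, which passes cholesterol to apolipoprotein A-I, had an age difference of 0.08 ± 0.10 (adjusted p = 0.546). These LXR targets moved in both directions, with Abcg8 and Srebf1 lower and Mylip higher at 24 months.

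Of 19 genes of cholesterol synthesis and uptake, 6 rose and 4 fell with age, with a median of 0.14 (4 and 4, with 0.13, without the array that stood apart). The median was 0.36 in wild type and 0.0010 in Myc+/-. Sqle, squalene epoxidase, averaged 10.48 in 5-month wild type, 10.64 in 5-month Myc+/-, 11.48 in 24-month wild type and 10.78 in 24-month Myc+/- liver. It rose by 0.57 ± 0.19 with age (adjusted p = 0.0451 by limma), and so did Idi1, isopentenyl diphosphate isomerase, by 0.61 ± 0.13 (adjusted p = 0.00769), Mvk, mevalonate kinase, by 0.47 ± 0.13 (adjusted p = 0.0213) and Lss, lanosterol synthase, by 0.46 ± 0.16 (adjusted p = 0.0495). Without that array Sqle and Lss did not pass, at 0.55 (adjusted p = 0.0559 by limma) and 0.45 (adjusted p = 0.0620).

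With genotype, averaged over the ages, 17 of these 19 genes were lower in Myc+/- (median -0.11) and 0 passed the pool-level test. In the 36-array fit, Hmgcs1, Lss, Mvk and Sqle were called lower in the Myc+/- pool at 24 months, where 1.81% of all probe sets were called, and 18 of 19 were lower (median -0.32). At 5 months 0 of the 19 were called, with 0.459% of all probe sets. There 14 were higher and 5 lower in the Myc+/- pool (median 0.03), so the lower values came from the 24-month pools. The age change differed between genotypes for 5 of the 19 (Hmgcs1, Lss, Mvd, Pmvk and Sqle), where 2.45% of all probe sets were called. Lss and Sqle had a smaller positive age difference in Myc+/- than in wild type. For the other 3 the age difference was positive in wild type and negative in Myc+/-, at 0.62 and -0.17 for Hmgcs1, 0.30 and -0.57 for Mvd, and 0.36 and -0.24 for Pmvk. Without the array that stood apart, 5 were again called, with Cyp51 in place of Pmvk. For Sqle this difference was -0.86 ± 0.13 (adjusted p = 4.54e-06, 36-array limma fit). Hmgcs1, Mvd, Pmvk and Cyp51 are outside the rule for named genes and were chosen after their values were seen. In the same fit Cyp8b1 and Slco1a1 differed in the opposite direction.

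**Figure D3:**
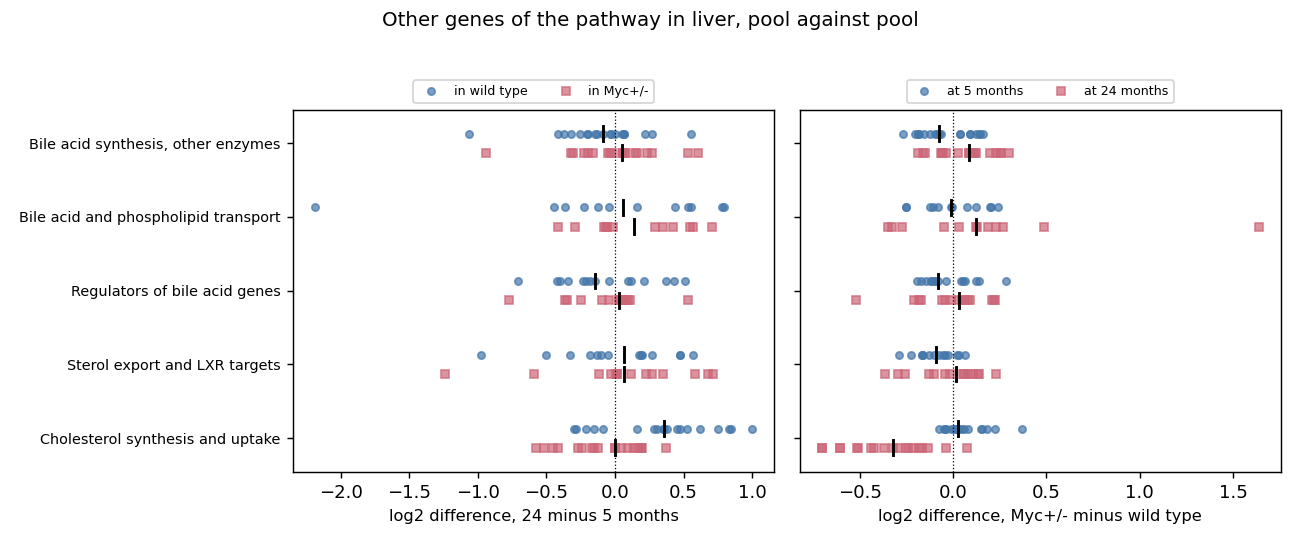
Differences in liver for the tested genes of 5 lists, 1 point per gene, in log2 units. The left panel gives 24 minus 5 months in wild type (blue circles) and Myc+/- (red squares), the right panel Myc+/- minus wild type at 5 months (blue) and 24 months (red), and black bars are medians. The cholesterol synthesis genes have a median of 0.36 with age in wild type and 0.0010 in Myc+/-, and the lone transporter near -2.19 in wild type is Slco1a1.

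Several other groups of genes were examined in the same liver pools. Clock genes were called lower in 11 of 16 and higher in 2 with age (median -0.59), where 17.2% and 30.5% of all probe sets were. Ciart was at -3.18 ± 0.18, Dbp at -2.46 ± 0.27 and Per3 at -1.79 ± 0.12. Bile acid synthesis is known to follow daily and feeding rhythms, and the hour of tissue collection is not given in the sources used here. Acute-phase genes were called higher in 6 of 20, a share near the 30.5% of all probe sets, and lower in 0. Their median age difference was 0.93 in wild type and 0.21 in Myc+/-. Their median genotype difference was 0.09 at 5 months and -0.50 at 24 months. In the fit on single arrays without the one that stood apart, 13 of the 20 were called for a lower age change in Myc+/-. With all arrays, 2.45% of all probe sets were called for a differing age change. Lcn2, lipocalin 2, had an age difference of 2.22 ± 0.69 (adjusted p = 0.0331 by limma). Its level averaged 9.91 in 5-month wild type, 12.46 in 5-month Myc+/-, 13.91 in 24-month wild type and 12.9 in 24-month Myc+/- liver. The part of these genes in the changes of Cyp8b1 and Abcg8 was not tested.

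Markers of other cells also moved. Macrophage and Kupffer cell markers rose with age in 9 of 10 (median 1.03), and neutrophil markers in 6 of 6, where 30.5% of all probe sets rose. Lymphocyte markers rose in 4 of 5 (median 0.65) and sinusoidal endothelium markers in 2 of 8 (median 0.14). Stellate cell and fibroblast markers rose in 5 of 10 (median 0.17), and 3 of the 10 had a negative difference that was not called. Skeletal muscle markers were lower in Myc+/- liver in 8 of 8 (median -0.54; 0 passed the genotype test), the contrast in which Cyp8b1 was higher. The summed level of muscle markers ran from 11.15 to 11.42 in 5-month wild type, 10.91 to 11.08 in 5-month Myc+/-, 11.68 to 11.77 in 24-month wild type and 10.82 to 10.93 in 24-month Myc+/- liver. All 7 tested markers of exocrine pancreas rose, and the median of all 11 on the array was 6.70, 6.62 and 7.32 in the 5-month wild type, 5-month Myc+/- and 24-month wild type pools and 9.23 in the 24-month Myc+/- pool. Their summed level ran from 12.85 to 13.07 on the arrays of that pool and from 10.88 to 10.92 on those of the 24-month wild type pool. Hepatocyte markers were called in 1 of 11 with age (median 0.02), and in 0 of 11 (median -0.07) without the array that stood apart. Pericentral hepatocyte genes, the zone where Cyp7a1 is known to be strong, rose in 6 of 14 and fell in 0, periportal ones rose in 2 and fell in 1 of 10. Whether these shifts bear on the bile acid genes was not tested.

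Across tissues, all 9 genes were higher in liver than in skeletal muscle and in adipose (pool-level limma, 4 pools per tissue), where 32.8% and 29.9% of 21789 probe sets were. Cyp27a1, which passed the filter on low values in all 3 tissues, was higher in liver by 1.73 ± 0.05 than in muscle and by 2.43 ± 0.05 than in adipose. The other 8 genes were below that filter outside liver, so their fitted differences are lower bounds. Each was higher in liver by at least 4.30 than in muscle (the value of Abcg8) and by at least 3.93 than in adipose (that of Nr1h4).

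**Figure D4:**
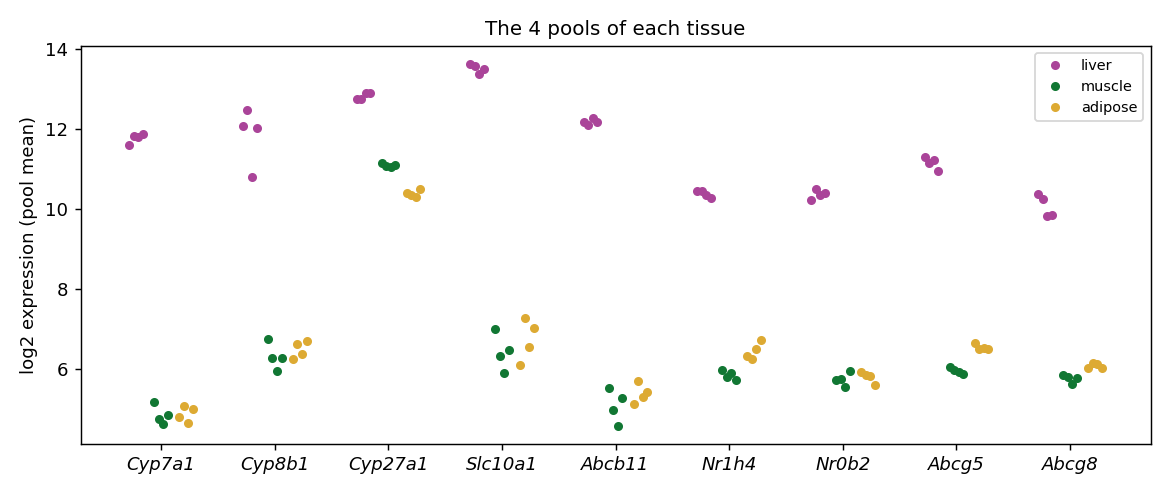
Mean log2 expression of the 9 genes in the 4 pools of liver (purple), skeletal muscle (green) and adipose tissue (yellow). Points of a tissue run from left to right as 5-month wild type, 5-month Myc+/-, 24-month wild type and 24-month Myc+/-. Each gene is read against itself: its 4 liver pools lie above its 8 pools outside liver, where all genes but Cyp27a1 were below the filter on low values.

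Cyp27a1 alone passed the filter on low values in muscle and adipose. Its pool means were 11.14, 11.08, 11.05 and 11.10 in muscle and 10.39, 10.34, 10.31 and 10.50 in adipose, in the order 5-month wild type, 5-month Myc+/-, 24-month wild type and 24-month Myc+/-. Neighbouring pools overlapped in both tissues. The age difference was -0.03 ± 0.07 in muscle and 0.04 ± 0.07 in adipose and the genotype difference -0.01 ± 0.07 and 0.07 ± 0.07, none of them called. Called probe sets made up 41.6% with age and 0% with genotype in muscle, and 27% with age and 0.0229% (3 probe sets) with genotype in adipose.

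In the 36-array fit, the adipose age change of Cyp27a1 differed between genotypes by 0.25 ± 0.08 (adjusted p = 0.0403, limma), with -0.09 in wild type and 0.17 in Myc+/-, under 1.5-fold. The age difference in liver did not pass a test against that in muscle (0.19 ± 0.10, adjusted p = 0.281 by limma) or adipose (0.12 ± 0.10, adjusted p = 0.398).

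Without the filter, 1 of the other 8 genes passed with age, Nr1h4 in adipose, at 0.33 ± 0.09 (adjusted p = 0.0440 by limma), where its pool means were 6.33 and 6.25 at 5 months and 6.52 and 6.72 at 24 months in wild type and Myc+/-. It was named after its value was seen.

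Slc10a1 differed between pools without overlap in both tissues. Its pool means were 7.02, 6.32, 5.91 and 6.48 in muscle and 6.12, 7.28, 6.56 and 7.04 in adipose, in the same order of pools. Hepatocyte markers varied there too: the median of the 11 was 8.39, 6.93, 6.45 and 7.54 in muscle and 6.94, 8.45, 8.41 and 8.54 in adipose. The pool highest for Slc10a1 was also highest for these markers in muscle, and in adipose the 5-month wild type pool was lowest for both. Albumin (Alb) itself averaged 10.94, 9.31, 8.78 and 11.14 in muscle and 9.93, 11.47, 11.30 and 11.72 in adipose. The part of this variation in the low readings of the bile acid genes outside liver was not tested.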

How the data were processed

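RNA pools of liver, skeletal muscle and adipose tissue were measured on arrays, and the deposited values are log2 expression per probe set, which the authors made with Affymetrix Expression Console and RMA, as named per the submitters' processing notes. Versions and settings are not given in the sources used here. They were used as deposited, and they are relative, so no level of 1 probe set was set against another. For labelling, both a 3' IVT kit and a whole-transcript kit are named, as are 2 ways of homogenising tissue without saying which sample had which.

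Of 35556 probe sets, 21789 had 1 gene symbol, 1621 had several and 12146 were not listed in the array annotation used. Entrez identifiers of 21698 were found in a RefSeq gene table (GRCm38.p6), 91 were not, and 0 symbols changed. Pool means of the 3 arrays were fitted with limma 3.58.1 (R 4.3.3, statmod 1.5.0), with tissue, age within tissue and genotype within tissue (9 coefficients, 3 residual degrees of freedom, eBayes moderation with a mean trend over the 21789, which added 4.18). Probe sets above the 40th percentile of the tissue mean were tested, 13073 per tissue, with Benjamini-Hochberg adjustment at 0.05. Tissues were compared over all 21789. The 36-array fit had 24 residual degrees of freedom and also required 1.5-fold. The ± after a mean is the SD of 3 arrays, and after a difference the SE of the fit. The median SD between arrays of a pool was 0.10 in liver. The number of arrays limits only that error.

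The members and lists were chosen with earlier results of these data known. Named were the 9 members, in each list up to 4 genes (the 2 largest differences with age and the 2 largest with genotype), the 5 liver genes most like the member of widest range, and Myc; exceptions are stated. Alternatives were other filters, scaling by array medians, liver pools alone, no intensity trend, the pool as a random block, the replicate number as a block, other minimum folds, and leaving out arrays or pools. The fits were tested on simulated data. Technical replicate numbers did not pair the arrays: deviations of same-numbered liver arrays correlated at -0.23 to 0.41, over 0.1 in 5 of 18 pairs. Promoter windows run 250 bases before each start in the RefSeq table, whose build need not be that of the array annotation, so no probe set coordinates are given.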

Additional observations from a re-analysis of the deposited data

Results flagged for a closer look

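The liver age change of Cyp8b1 differed between the genotypes by 0.81 (log2, Myc+/- minus wild type), by the interaction in the limma fit on 36 arrays (adjusted p = 0.000929). The 24-month minus 5-month difference was -1.27 in wild type and -0.46 in Myc+/-, and Cyp8b1 was lower at 24 months in both.

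The adipose age change of Cyp27a1 differed between the genotypes by 0.25 in the same fit (adjusted p = 0.0403 by limma), with -0.09 in wild type and 0.17 in Myc+/-. This difference was under 1.5-fold and so was not called. Both tests rest on the error between technical arrays of single pools.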

How the results depend on the processing

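Of the counts recomputed under the alternatives, 160 equalled the main count or lay within 1.5-fold of it, 18 were higher and 6 lower. Of the member values, 639 kept their side of the threshold, 12 came to lie past it and 6 short of it. No called value changed sign. The pool-level fit has 2 pools per arm, and its error comes from 4 cohorts. Probe sets called with genotype in liver numbered 0, 3 with liver pools alone and 615 with the pool as a random block, where arrays of a pool (consensus correlation 0.11) count almost as separate samples. That block also called 1 member higher with age (Cyp27a1) and 1 higher with genotype (Cyp8b1, adjusted p = 0.000106). Leaving out 1 liver pool or 1 array number at a time, the genotype calls ran from 0 to 48, the age calls over all probe sets from 3388 to 5636 against 6241 with all, and the members called lower with age from 0 to 2. Where a liver pool was left out, the error came from muscle and adipose only, so those counts do not show how firm the liver calls are. With no filter, 1 member (Nr1h4) was called higher with age in adipose. In the 36-array fit with no minimum fold, members called were 1 higher and 3 lower with age in wild type, 1 higher and 2 lower with age in Myc+/-, and 1 higher with genotype at 5 months. With a minimum of 2-fold, 0 members differed in age change. Leaving out array 1, 2 or 3 of every pool, members called higher with genotype at 5 months ran from 0 to 1, those whose age change differed from 0 to 1, and those lower with age in wild type from 1 to 2 (Abcg8 joined, at -0.61, without array 3). Without array 1 of the 5-month Myc+/- liver pool, an alternative chosen after seeing the data, 1 member was called lower with age in Myc+/-. With the replicate number as a block (replicate block), Cyp8b1 kept -1.27 with age in wild type (adjusted p = 1.37e-12 by limma), and no member's call changed. The cause of these shifts was not tested. Each member had 1 probe set, so averaging probe sets gave no other value. Centring each array shifted it by at most 0.12 and changed no member's call.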
